A study of Mus musculus with 2 samples.

Results

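The 8 genes described here make polyamines or control their amount. They were chosen by name, as Odc1, Amd1 and Srm (enzymes), Oaz1, Oaz2 and Oaz3 (antizymes) and Azin1 and Azin2 (antizyme inhibitors), and all 8 were found among the 36547 genes listed in the count tables of either library. The tables come from 1 WT and 1 Alkbh5-/- (KO) testis library of 12-week-old C57BL/6 mice, and the KO is a deletion in all cells, not in one cell type. ALKBH5 removes the N6-methyladenosine mark from RNA. The study speaks of 1 mouse per genotype in its introduction and of 3 in its methods, so a library may pool animals, and no difference between WT and KO given here has a replicate check.

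Polyamines (putrescine, spermidine and spermine) are small positively charged molecules that bind RNA and DNA and are needed by dividing cells. ODC1 makes putrescine from ornithine, AMD1 supplies the aminopropyl donor by decarboxylating S-adenosylmethionine, and SRM joins the products into spermidine. When polyamines are abundant, ribosomes shift frame on antizyme mRNA and full antizyme is made, which binds ODC1 and, for the widely expressed forms, sends it to the proteasome. Antizyme inhibitors resemble ODC1, lack its activity and take up antizyme. OAZ3 is known as the antizyme of haploid male germ cells, and AZIN2 as the inhibitor of testis and brain.

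The antizymes share the site at which this frame shift occurs. It is shown because the mRNA levels given below do not measure this step of translation. The sequences are 30 coding bases each, read 5′ to 3′ on the strand of the gene from transcripts of GENCODE vM21 on GRCm38 that run through the site. Capitals mark the last codon read in the first frame and the stop codon after it, and the annotation leaves out the fourth of these bases, the first base of the stop codon, from the coding sequence.
Oaz1: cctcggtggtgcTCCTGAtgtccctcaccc
Oaz2: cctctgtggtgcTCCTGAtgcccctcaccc
Oaz3: tgcctccagtgcTCCTGAgtccctaggagg
The skipped base lies at position 80828295 of chromosome 10 in Oaz1 (site chr10:80828280-80828309, plus strand), at 65686272 of chromosome 9 in Oaz2 (chr9:65686257-65686286, plus strand) and at 94436034 of chromosome 3 in Oaz3 (chr3:94436020-94436049, minus strand). Of the 30 positions, 13 carry the same base in all 3 genes.

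In the same annotation Odc1 (ENSMUSG00000011179.8) lies on chromosome 12 (17544794 to 17551505), Amd1 (ENSMUSG00000075232.5) on chromosome 10 (40287458 to 40302186), Srm (ENSMUSG00000006442.10) on chromosome 4 (148591503 to 148594993), Azin1 (ENSMUSG00000037458.15) on chromosome 15 (38487427 to 38519266) and Azin2 (ENSMUSG00000028789.16) on chromosome 4 (128930233 to 128962442). Oaz1 (ENSMUSG00000035242.15) spans 80826656 to 80829290 of chromosome 10, Oaz2 (ENSMUSG00000040652.16) 65668001 to 65690300 of chromosome 9 and Oaz3 (ENSMUSG00000028141.11) 94432414 to 94443915 of chromosome 3. Exons of Oaz3 overlap those of Tdrkh and Mrpl9 on the opposite strand, Azin1 overlaps the antisense gene Gm49077, and Oaz1 holds Mir1982. Whether counting used the strand is not given in the sources used here, so reads from those bases cannot be told apart. Reads may also be shared with Amd2 (13 UMIs in WT, 46 in KO), Oaz1-ps (86 and 126) and Oaz2-ps (14 and 26), small numbers beside those of the members.

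The WT library held 5756 barcodes and 80283221 unique molecular identifiers (UMIs), and the KO library 7012 barcodes and 82056760 UMIs. The median barcode had 10905.5 UMIs in WT and 9117.5 in KO. The libraries shared 45 barcode sequences, 0.782% of those in WT. Cells fell into 15 clusters, named by marker genes and by one leading gene where a class had several. They comprised 11 germ cell clusters, from spermatogonia-like to sperm-like, and Leydig-like, Sertoli-like, macrophage-like and endothelial-like cells. The endothelial-like cluster held 1 WT cell and was not compared, which left 14. Alkbh5, the targeted gene, had 607 UMIs in WT and 5 in KO. In spermatogonia-like cells it stood at 68.4 CPM (a gene's UMIs scaled to a common total of all UMIs) in WT and 0.12 CPM in KO.

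Levels are CPM of all UMIs summed over a cluster, with exact Poisson 95% intervals, which cover counting error only. Differences are the log2 ratio of KO CPM over WT CPM, with the exact conditional interval of both sums. A ratio past 2-fold in either direction is counted, where both sums together held at least 20 UMIs, beside the share of all genes that passed the same rule. No p-value is given, since cells of 1 library are not replicates.

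**Figure D1:**
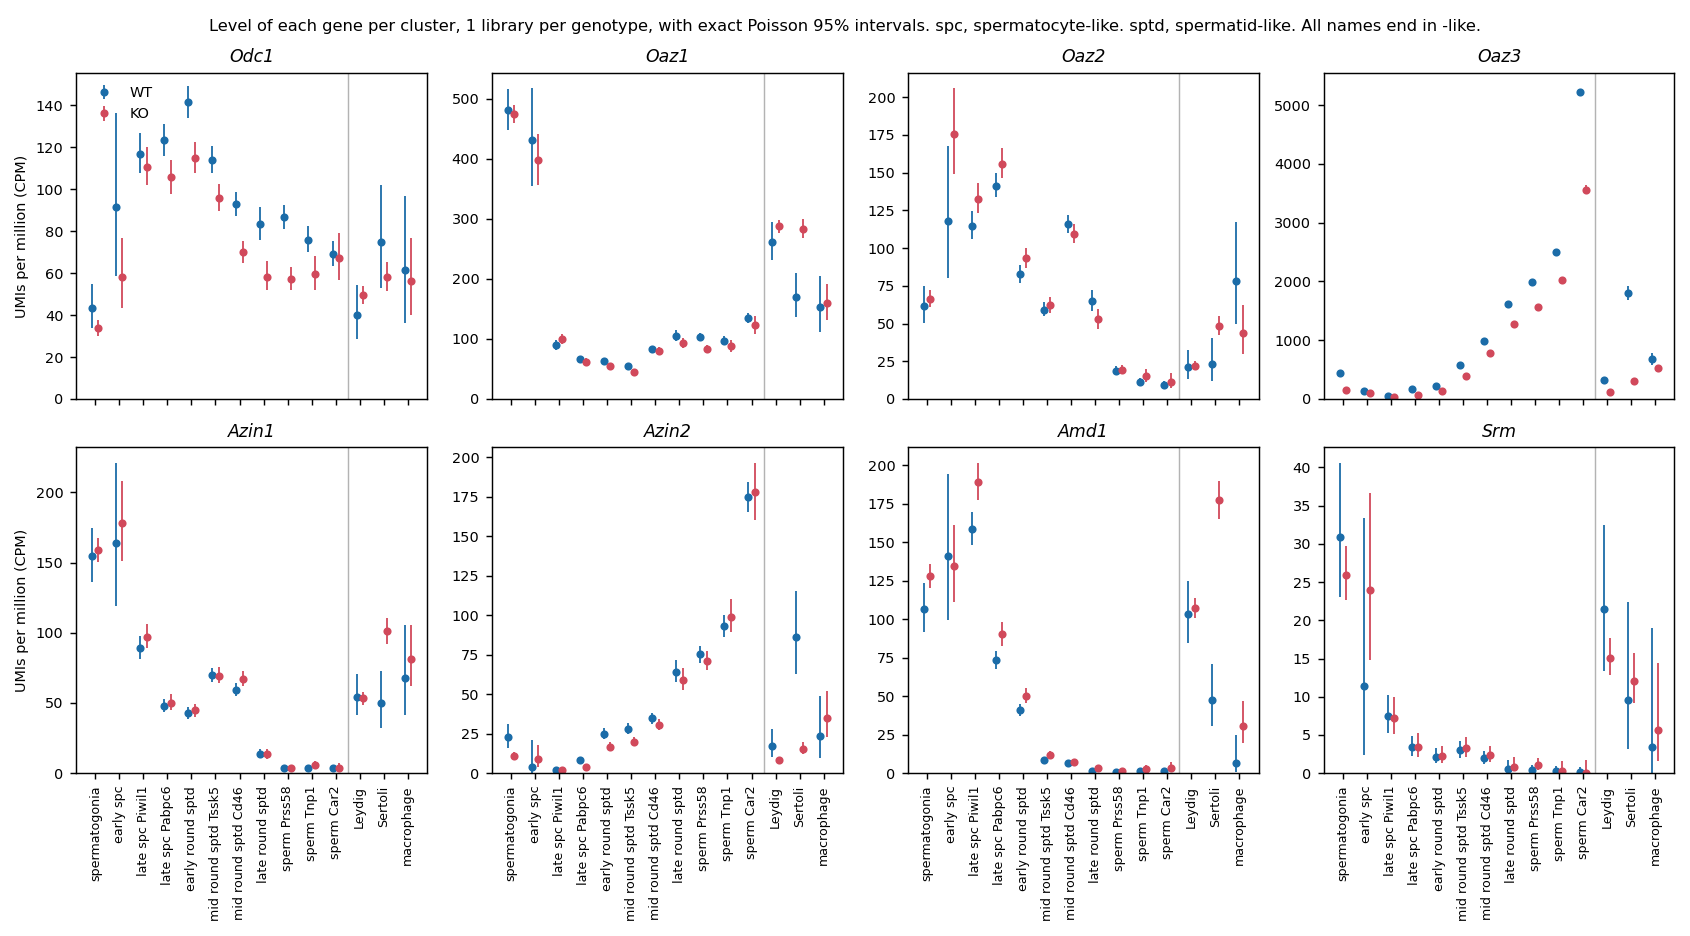
Level of each of the 8 genes in CPM (linear axes) in the 14 clusters, germ cells left of the line in order of stage, blue for WT and red for KO, with exact Poisson 95% intervals. Oaz3 climbs to 5227 CPM in WT and 3560 CPM in KO in the last sperm-like cluster, while Oaz1, Azin1, Amd1 and Srm are high at the start of the series.

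Among the enzymes, Odc1 was detected throughout the germ line and was highest in the early-stage round spermatid-like cluster. There it stood at 142 CPM (134 to 149) in WT and 115 CPM (108 to 122) in KO. In spermatogonia-like cells it was 43.4 CPM (34.0 to 54.6) in WT and 33.6 CPM (29.8 to 37.8) in KO, the lowest of the germ cell clusters in both libraries. From the early-stage round spermatids on, the WT level declined cluster by cluster apart from a small step up at the Prss58 cluster. It ended at 69.1 CPM (63.2 to 75.4) in the last, Car2, sperm-like cluster. The compared WT somatic clusters had 39.9 to 74.6 CPM, and only the Sertoli-like cluster, on 39 UMIs, was above the Car2 level. That WT Sertoli-like cluster also held sperm markers, as given below. The late spermatocyte-like Pabpc6 cluster at 123 CPM (116 to 131) and the Piwil1 cluster at 117 CPM (108 to 127) had overlapping intervals. Odc1 had a UMI in 78.7% of WT and 72.7% of KO early-stage round spermatid-like cells. In cells thinned to 5000 UMIs these shares were 49.8% and 45.8%.

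Amd1 had an earlier peak. It stood at 107 CPM (91.5 to 123) in WT and 128 CPM (121 to 136) in KO spermatogonia-like cells, and was highest in the late spermatocyte-like Piwil1 cluster at 159 CPM (148 to 170) in WT and 189 CPM (178 to 202) in KO. It then dropped to 73.2 CPM in WT and 90.4 CPM in KO in the Pabpc6 cluster, and to 8.30 and 11.7 CPM in the mid-stage Tssk5 cluster. In the 3 sperm-like clusters no more than 13 UMIs were counted in either library. Of its WT UMIs, 34.5% lay in the Piwil1, 26.6% in the Pabpc6 and 16.1% in the early-stage round spermatid-like cluster. In the WT sperm-like clusters Amd1 was at 0.66% to 0.881% of its highest level, while Odc1 was at 48.8% to 61.3% of its own.

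Srm was the least detected of the members, with 237 UMIs in WT and 599 in KO. Its highest level was in spermatogonia-like cells, at 30.9 CPM (23.1 to 40.6) in WT and 26.0 CPM (22.6 to 29.7) in KO. Leydig-like cells had 21.4 CPM (13.4 to 32.4) and 15.1 CPM (12.8 to 17.6). Early spermatocyte-like cells, with 3 UMIs in WT, reached 24 CPM (14.8 to 36.7) in KO. In the sperm-like Car2 cluster 1 UMI was counted in WT and 0 in KO, which allows up to 1.38 CPM there.

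The antizymes replaced one another along the series. Oaz1, the antizyme of most tissues, was highest in spermatogonia-like cells at 481 CPM (448 to 515) in WT and 474 CPM (459 to 489) in KO. It was 431 CPM (355 to 518) and 397 CPM (357 to 441) in early spermatocyte-like cells. The next cluster, late spermatocyte-like Piwil1, held 90.3 CPM (82.3 to 98.8) in WT and 99.8 CPM (91.4 to 109) in KO. Its lowest value was in the mid-stage Tssk5 cluster, with an interval that overlapped that of the early-stage round spermatids, at 54.6 CPM (50.2 to 59.3) in WT and 45.2 CPM (40.8 to 49.9) in KO, and it was back at 134 CPM (126 to 143) and 123 CPM (109 to 139) in the Car2 cluster. Leydig-like cells, at 262 CPM (231 to 295) in WT and 287 CPM (277 to 298) in KO, lay between the early spermatocyte-like and the later germ cell clusters.

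Oaz2, the other widely expressed antizyme, was high in spermatocytes. It stood at 141 CPM (134 to 150) in WT and 156 CPM (146 to 166) in KO in the late spermatocyte-like Pabpc6 cluster, the highest in WT. In KO the early spermatocyte-like cluster was higher, at 176 CPM (149 to 206), with an interval that overlapped that of the Pabpc6 cluster. A second rise was seen in the mid-stage round spermatid-like Cd46 cluster, at 116 CPM (110 to 122) in WT and 109 CPM (103 to 116) in KO, above the Tssk5 cluster before it, at 59.3 CPM (54.7 to 64.1) and 62.3 CPM (57.1 to 67.8). In the Car2 cluster 9.19 CPM (7.12 to 11.7) remained in WT and 11.5 CPM (7.45 to 17.0) in KO. Spermatogonia-like cells, at 61.9 CPM in WT and 66.3 CPM in KO, were not the high point of this antizyme.

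Oaz3 was higher at every step from the Piwil1 cluster on. In WT it went from 55.3 CPM (49.2 to 62.1) there to 227 CPM (217 to 236) in early-stage round spermatid-like cells, 981 CPM (963 to 999) in the mid-stage Cd46 cluster, 1994 CPM (1968 to 2022) in the Prss58 cluster and 5227 CPM (5175 to 5280) in the Car2 cluster. In KO the same clusters held 32.0 CPM (27.4 to 37.3), 128 CPM (121 to 136), 786 CPM (769 to 804), 1564 CPM (1536 to 1592) and 3560 CPM (3481 to 3640). No neighbouring clusters from Piwil1 on had overlapping intervals in either library. The Car2 cluster alone held 34.4% of the Oaz3 UMIs of the WT library.

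Single cells showed the same climb. In cells thinned to 5000 UMIs the median cell had 2 Oaz3 UMIs in the Tssk5 cluster of either library. It had 8 in WT and 6 in KO in late-stage round spermatid-like cells, and 22 in WT (12 at the 10th and 39 at the 90th percentile) and 16 in KO (9 and 28) in the Car2 cluster. Every cell of the sperm-like clusters had at least 1 Oaz3 UMI before thinning.

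The antizyme inhibitors split the series between them. Azin1, the inhibitor of most tissues, was highest in early spermatocyte-like cells at 164 CPM (119 to 221) in WT and 178 CPM (151 to 208) in KO. Its intervals overlapped those of spermatogonia-like cells, at 155 CPM (136 to 175) in WT and 159 CPM (150 to 167) in KO. A second, smaller rise lay in the mid-stage Tssk5 cluster at 69.7 CPM (64.7 to 75.0) in WT and 69.6 CPM (64.1 to 75.3) in KO, above the 42.6 and 44.8 CPM of early-stage round spermatids. In the Car2 cluster it stood at 3.43 CPM (2.22 to 5.06) and 3.68 CPM (1.59 to 7.26).

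Azin2 followed Oaz3. It was 2.29 CPM (1.18 to 4.0) in both libraries in the Piwil1 cluster, 25 CPM (21.9 to 28.4) in WT and 16.7 CPM (14.1 to 19.7) in KO in early-stage round spermatid-like cells, and 175 CPM (165 to 185) and 178 CPM (160 to 196) in the Car2 cluster. Azin2 and Oaz3 did not rise in step. Per UMI of Oaz3, WT had 0.0469 UMIs of Azin2 in Pabpc6, 0.110 in early-stage round spermatids, 0.0496 in Tssk5 and 0.0334 in Car2. The KO values were 0.0535, 0.130, 0.0511 and 0.0499. Per UMI of Azin1, 0.0256 UMIs of Azin2 were counted in the WT Piwil1 cluster, 0.587 in early-stage round spermatids, 4.72 in late-stage round spermatids and 51.0 in the Car2 cluster. The largest step between neighbouring clusters from Piwil1 on lay between the mid-stage Cd46 cluster and the late-stage round spermatids, from 0.584 to 4.72 in WT and from 0.455 to 4.41 in KO.

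**Figure D2:**
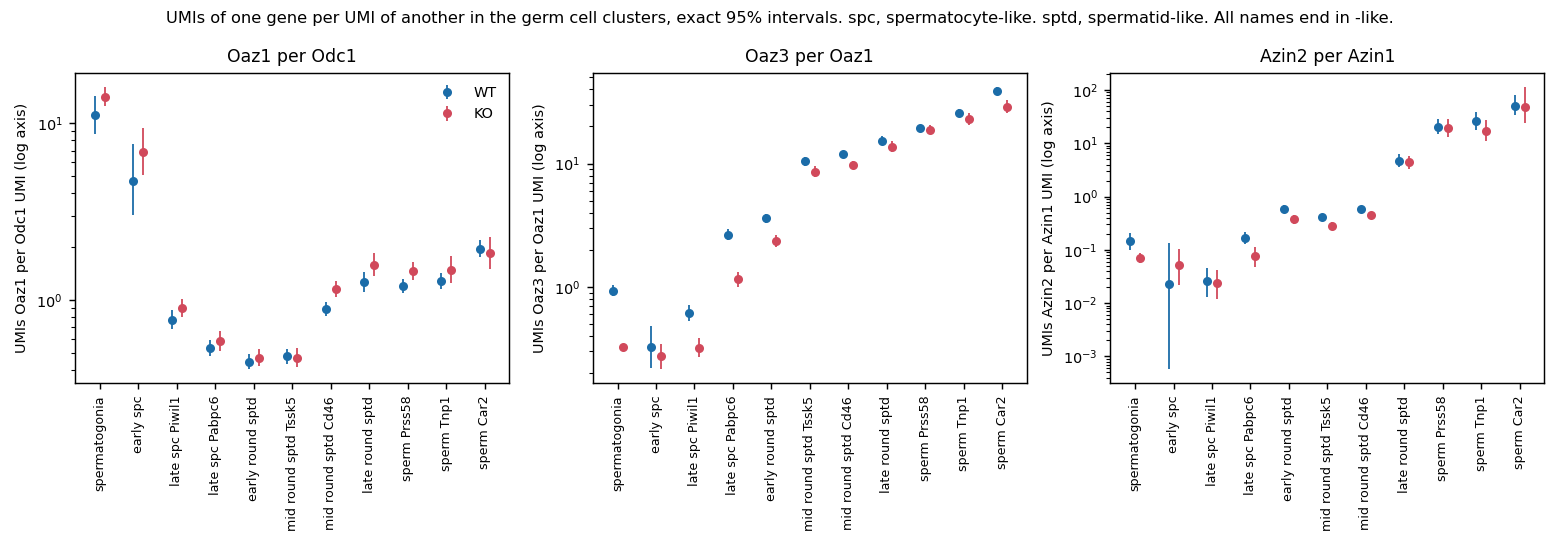
UMIs of one gene per UMI of another (log axes) in the 11 germ cell clusters, blue for WT and red for KO, with exact 95% intervals. Oaz1 per Odc1 falls from 11.1 in WT spermatogonia-like cells to 0.447 in early-stage round spermatids and returns to 1.94 in the Car2 cluster. From the Piwil1 cluster on, Oaz3 per Oaz1 climbs at every step. Azin2 per Azin1 climbs from there too, apart from drops at Tssk5 in both libraries and at Tnp1 in KO.

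The counted ratio of antizyme to enzyme mRNA also changed along the series. Oaz1 UMIs per Odc1 UMI were 11.1 (8.70 to 14.3) in WT spermatogonia-like cells and 14.1 (12.5 to 16) in KO. They were 0.447 in WT and 0.471 in KO in early-stage round spermatids, and 1.94 and 1.83 in the Car2 cluster. Oaz3 UMIs per Oaz1 UMI went from 0.613 in the WT Piwil1 cluster to 38.9 in the Car2 cluster, and from 0.321 to 29.0 in KO. These ratios are not corrected for the lengths of the genes, so only their change along the series can be read.

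Correlations of log2(CPM + 1) over the 14 clusters of both libraries (28 points, which share libraries, stages and depth) describe the same grouping. Oaz3 and Azin2 had a Pearson r of 0.97, Azin1 and Amd1 of 0.82, Oaz2 and Azin1 of 0.75, Oaz3 and Amd1 of -0.86, and Odc1 and Oaz1 of -0.72. Among 10115 genes with at least 1000 UMIs, those most like Oaz3 were 4930571K23Rik, 2810408A11Rik and Smcp, the last a protein of the sperm mitochondrial capsule, each at 0.99. Those most like Azin2 were Acsl1, Clpb and Gapdhs, the sperm form of glyceraldehyde-3-phosphate dehydrogenase, at 0.98 to 0.99. Amd1 was most like Rprd2, Ddx52 and Tmem38b (0.98), Azin1 most like Gng5, Eif3m and Puf60 (0.97 to 0.98), Oaz1 most like Nsd1, Cdc42se2 and Vezf1 (0.95 to 0.96) and Oaz2 most like Skiv2l, Gtf2f1 and Cript (0.93 to 0.94). Odc1 had no close partner, with Dnah7a, Abhd8 and Stk33 at 0.86 to 0.87, and Srm was under the minimum.

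Oaz3 was also counted in cells that should lack it. In WT it stood at 449 CPM in spermatogonia-like, 320 CPM in Leydig-like, 1805 CPM in Sertoli-like and 675 CPM in macrophage-like cells, and in KO at 154, 113, 303 and 524 CPM. A UMI was present in 41.1% of WT Leydig-like cells, whose median depth was 9977 UMIs, beside 100% of cells in the Car2 cluster, at 7134 UMIs. The 20 later sperm markers, a list with Prm2 and Odf1 in it, were found in the same cells in nearly the same proportion. Oaz3 in WT Sertoli-like cells had 34.5% of its level in the Car2 cluster and the median of the 20 markers was 36.8% (range 32.3% to 65.9%). The corresponding values were 8.52% and 9.16% in KO Sertoli-like cells, 6.13% and 4.78% in WT and 3.17% and 3.35% in KO Leydig-like cells, and 8.58% and 6.63% in WT and 4.34% and 4.37% in KO spermatogonia-like cells. In late spermatocyte-like cells of WT the values were also close, at 1.06% for Oaz3 and 1.04% for the marker median in the Piwil1 cluster and 3.35% and 3.53% in the Pabpc6 cluster. In WT early-stage round spermatid-like cells Oaz3 was at 4.34% and the marker median at 1.61%. The part of RNA from sperm in these levels was not tested. In spermatogonia-, Leydig-, Sertoli- and macrophage-like cells all 20 markers had UMIs in both libraries, and Oaz3 lay within their range except in WT macrophage-like cells, where it had 12.9% and they had 13.2% to 30.5%. Azin2 lay above the range of the markers in spermatogonia-like cells, at 12.9% beside a highest marker of 11.5% in WT and 6.27% beside 5.72% in KO, and in WT Leydig-like cells, at 10.03% beside 9.18%.

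**Figure D3:**
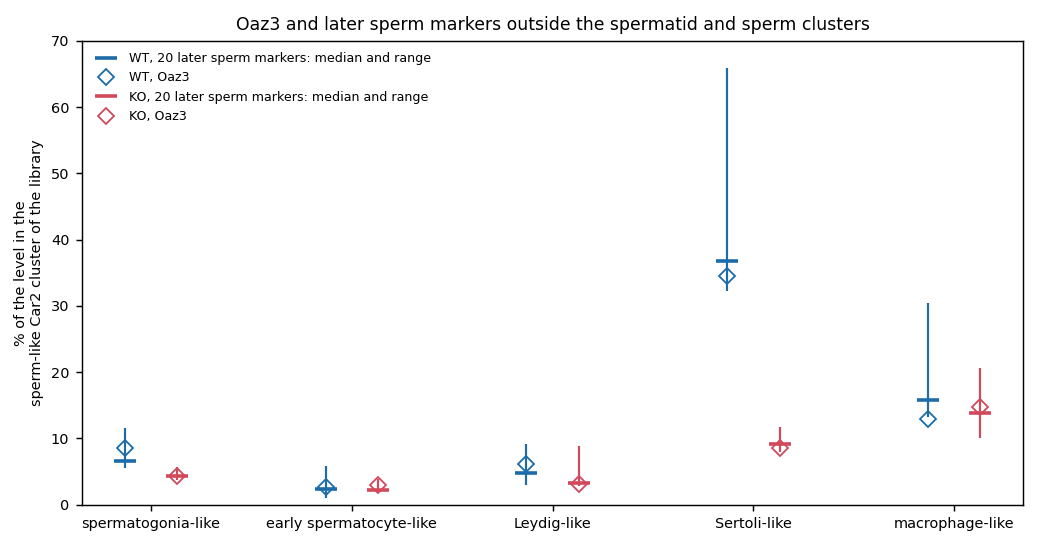
Level of Oaz3 (diamonds) in 5 clusters outside the spermatid and sperm-like series, in % of its level in the sperm-like Car2 cluster of the same library, beside the median (dash) and range (line) of 20 later sperm markers, blue for WT and red for KO. Oaz3 lies within the marker range in every group but WT macrophage-like cells, and stands at 34.5% in WT and 8.52% in KO Sertoli-like cells.

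Between WT and KO, 15 of the 112 pairs of gene and cluster passed 2-fold, 7 with the gene higher and 8 with it lower in KO. The 112 include pairs under 20 UMIs, which could not be counted, as 6 to 8 of the 8 members were tested per cluster. Those lower were Oaz3 and Azin2, each in the spermatogonia-like, late spermatocyte-like Pabpc6, Leydig-like and Sertoli-like clusters. The 2 members in each of these clusters stand beside 7.68%, 3.72%, 12.9% and 14.9% of all genes tested there that were lower by the same rule. Those higher were Amd1 in late-stage round spermatid-like, Tnp1 sperm-like, Sertoli-like and macrophage-like cells, Oaz2 and Azin1 in Sertoli-like cells and Srm in early spermatocyte-like cells. Of all genes tested, 9.83%, 9.07%, 39.9% and 16.6% were higher in the late-stage round spermatid-like, Tnp1, Sertoli-like and macrophage-like clusters, and 6.81% in early spermatocyte-like cells. No member passed 2-fold in the Piwil1 (5.28% of all genes higher and 3.66% lower), early-stage round spermatid-like (4.35% and 3.78%), Tssk5 (6.98% and 3.58%), Cd46 (10.2% and 3.38%), Prss58 (9.95% and 3.39%) and Car2 clusters (13.3% and 4.69%). For the remaining directions without a member, 7.77% of genes were higher in spermatogonia-like, 3.93% in Pabpc6 and 8.3% in Leydig-like cells, and 4.63% were lower in early spermatocyte-like, 2.8% in late-stage round spermatid-like, 4.79% in Tnp1 and 8.91% in macrophage-like cells. With clusters of 1 class summed, Oaz3 alone of the members passed 2-fold, in late spermatocyte-like cells (6.3% of genes higher, 3.85% lower), and none did in mid-stage round spermatid-like (10.1% and 2.61%) or sperm-like cells (13.7% and 3.13%). The median ratio of the members tested was between -0.19 and 0.54 in the 14 clusters, and that of all genes between -0.06 and 0.70.

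**Figure D4:**
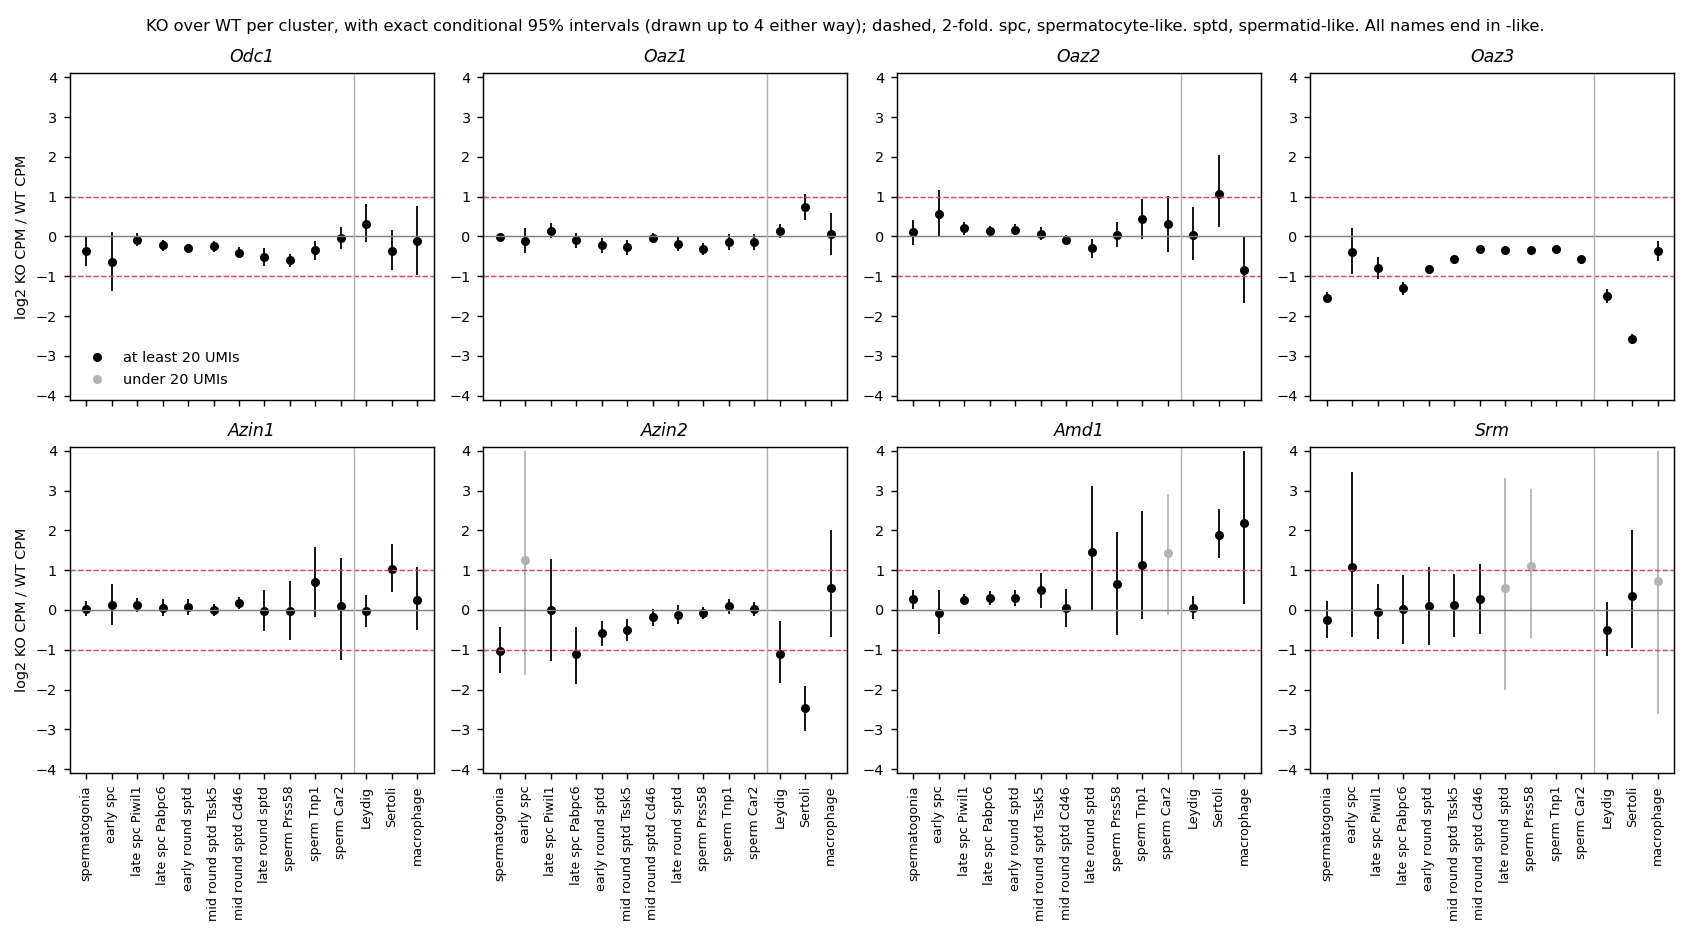
Log2 ratio of KO CPM over WT CPM of each gene in the 14 clusters, with exact conditional 95% intervals drawn up to 4 either way, grey where both sums together held under 20 UMIs, red dashes at 2-fold. Oaz3 lies below 0 in all 14 clusters (-0.31 to -2.57) and Odc1 in all 11 germ cell clusters (-0.04 to -0.65), while Amd1 lies above 0 in 10 of 11.

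Oaz3 was lower in the KO library in all 14 clusters, and the interval excluded 0 in 10 of the 11 germ cell clusters. In the cells in which it is most abundant the log2 ratio was -0.35 (-0.38 to -0.32) in the Prss58 cluster, -0.31 (-0.35 to -0.27) in the Tnp1 cluster and -0.55 (-0.59 to -0.52) in the Car2 cluster, none past 2-fold. The 20 later sperm markers had medians of -0.14, -0.11 and -0.08 there. None of the 20 was as far below 0 as Oaz3 in the Prss58 and Car2 clusters, and 1 was in the Tnp1 cluster. In the Prss58 cluster the lowest marker, at -0.347, lay within the interval of Oaz3 (-0.351) and was nearly level with it. The lowest marker in the Car2 cluster was at -0.38. There the genes most like Oaz3, 4930571K23Rik, 2810408A11Rik and Smcp, had -0.15, -0.07 and -0.27, and the median of all genes tested was 0.21.

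Sperm-like cells of both libraries were then put in 5 bins of equal size by summed later over earlier sperm markers, a comparison added after the data had been seen. WT and KO cells fell unequally into the bins, with 246 and 503 in the first and 570 and 179 in the last. Oaz3 was lower in KO in each, with log2 ratios of -0.31, -0.15, -0.24, -0.27 and -0.59 from the first bin to the last. Levels in the last bin were 6083 CPM in WT and 4052 CPM in KO. Oaz1 was lower in KO in each bin as well, at -0.40, -0.16, -0.22, -0.10 and -0.12. Its interval excluded 0 in the first bin only. Odc1 was lower in KO in the first 4 bins (-0.42 to -0.57) and at 0.12 (-0.21 to 0.43) in the last. Azin2 showed -0.11 in the first bin and 0.04 to 0.21 in the others, all with intervals that held 0.

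**Figure D5:**
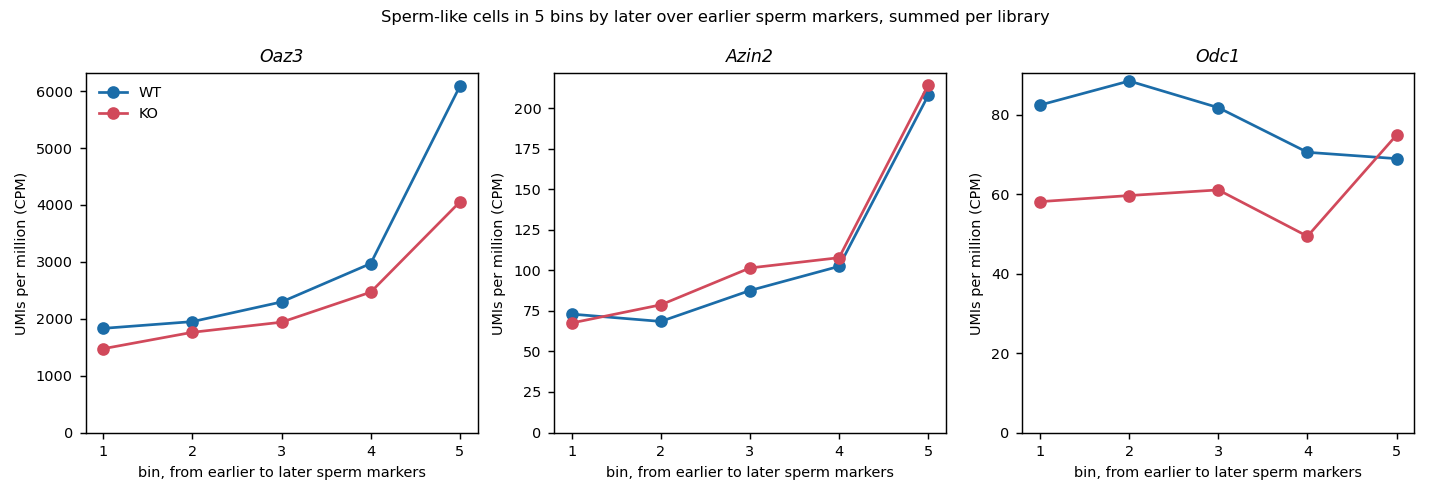
Level of Oaz3, Azin2 and Odc1 in CPM (linear axes from 0) in the 5 bins of sperm-like cells, from earlier to later sperm markers, blue for WT and red for KO, 1 summed value per library and bin. The WT and KO lines of Oaz3 part most in the last bin (6083 and 4052 CPM), whereas those of Azin2 stay close.

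In the 4 clusters where Oaz3 and Azin2 passed 2-fold, the median of the sperm markers was below 0 as well, by less than Oaz3. Oaz3 had -1.54 (-1.67 to -1.41) in spermatogonia-like, -1.30 (-1.46 to -1.15) in Pabpc6, -1.50 (-1.68 to -1.32) in Leydig-like and -2.57 (-2.69 to -2.45) in Sertoli-like cells, and Azin2 had -1.02, -1.11, -1.09 and -2.47. The median of the 20 later sperm markers in those clusters was -0.71, -0.89, -0.53 and -2.13, and none of the 20 was at 0 UMIs. No marker was as far below 0 as Oaz3 in spermatogonia-like (lowest marker -1.19), Leydig-like (-1.24) and Sertoli-like cells (-2.48), and 2 of the 20 were in the Pabpc6 cluster. For Azin2 the counts were 1, 2, 1 and 4. Oaz3 did not stand apart from the markers in every cluster. Early-stage round spermatids had -0.82 for Oaz3 beside a marker median of -1.19 (12 of the 20 lower than Oaz3). The values were -0.55 and -0.63 (12 lower) in Tssk5, -0.79 and -0.81 (11) in Piwil1, and -0.37 and -0.35 (10) in macrophage-like cells. In Cd46, late-stage and early spermatocyte-like cells Oaz3 had -0.32, -0.35 and -0.38 beside -0.06, -0.11 and -0.04 (1, 1 and 5 lower). With TMM factors Azin2 missed 2-fold in spermatogonia-like (-0.96) and Leydig-like cells (-0.86). All 40 sperm markers together made 94859 CPM in WT and 23985 CPM in KO Sertoli-like cells, and 17982 and 11224 CPM in spermatogonia-like cells. With cells called doublets left out, the Oaz3 ratio in spermatogonia-like cells was -2.48. The part of sperm RNA in these ratios was not tested beyond these values.

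Odc1 was lower in KO in all 11 germ cell clusters, by less than 2-fold in each, with intervals that excluded 0 in 7. Its ratio was -0.30 (-0.42 to -0.18) at its peak in early-stage round spermatids, -0.51 (-0.73 to -0.29) in late-stage round spermatids and -0.60 (-0.77 to -0.44) in the Prss58 cluster. It ended at -0.04 (-0.32 to 0.23) in the Car2 cluster. Of all genes tested, 8.98% were further below in the Prss58 cluster, 20.4% in early-stage round spermatids and 38.5% in the Piwil1 cluster. In Leydig-like cells, where Odc1 stood at 39.9 CPM in WT and 49.4 CPM in KO, the ratio was 0.31 (-0.15 to 0.81).

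Amd1 was higher in KO in 10 of the 11 germ cell clusters, and the interval excluded 0 in 6. At its peak in the Piwil1 cluster the ratio was 0.25 (0.12 to 0.39), and it was 0.30 (0.14 to 0.47) in the Pabpc6 cluster and 0.30 (0.09 to 0.50) in early-stage round spermatids. The ratios past 2-fold rest on few UMIs, 6 in WT and 15 in KO in late-stage round spermatids, 11 and 11 in the Tnp1 cluster and 2 and 22 in macrophage-like cells. Amd1 stood at 103 CPM in WT and 107 CPM in KO in Leydig-like and 47.8 and 177 CPM in Sertoli-like cells. Summed markers of Leydig and Sertoli cells were higher in KO in all 11 germ cell clusters, for instance at 53.2 CPM in WT and 123 CPM in KO (Leydig) and 24.9 and 98.7 CPM (Sertoli) in late-stage round spermatids. Their part in the Amd1 ratios was not tested. In early spermatocyte-like cells it was -0.07 (-0.61 to 0.51).

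Sertoli-like cells held the largest Amd1 count of these, 25 UMIs in 54 WT cells and 835 in 473 KO cells, or 47.8 CPM (31.0 to 70.6) and 177 CPM (165 to 190). The log2 ratio was 1.89 (1.32 to 2.53). The median of all genes tested in this cluster was 0.70, and the 16 Sertoli markers together made 10693 CPM in WT and 28279 CPM in KO. Azin1 had 1.02 (0.45 to 1.65), Oaz2 1.07 (0.24 to 2.04) and Oaz1 0.73 (0.42 to 1.06), nearer to that median than Amd1, whose ratio was above that of 88.8% of the genes. With TMM factors Oaz2 had 0.81 and Azin1 0.76, both under 2-fold, and Amd1 1.63. How much of these ratios goes with the larger amount of sperm RNA in the WT cells was not tested.

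The Oaz1 ratio was below 0 in 10 of the germ cell clusters (-0.32 to 0.14 over all 11), with an interval below 0 in 4, and in spermatogonia-like cells the ratio turned from -0.02 to 0.04 with TMM factors. The lowest value was in the Prss58 cluster at -0.32 (-0.46 to -0.18). Oaz2 was higher in KO in 9 of 11, with an interval above 0 in 4, among them 0.21 (0.05 to 0.37) in the Piwil1 cluster and 0.14 (0.02 to 0.26) in the Pabpc6 cluster. Its highest ratio, 0.57, was in early spermatocyte-like cells, on 31 UMIs in WT and 154 in KO. Oaz2 was lower in late-stage round spermatids, at -0.30 (-0.54 to -0.06). Azin1 had ratios between -0.02 and 0.71 in the germ cell clusters, and only that of the Cd46 cluster, 0.18 (0.02 to 0.33), had an interval that excluded 0. Azin2 was -0.58 (-0.89 to -0.27) in early-stage round spermatids and -0.51 (-0.79 to -0.23) in the Tssk5 cluster, and 0.02 (-0.14 to 0.19) in the Car2 cluster. The later sperm markers had medians of -1.19 in early-stage round spermatids and -0.63 in the Tssk5 cluster. Of the 20 markers, 13 and 12 were lower than Azin2 there. Srm had no germ cell interval that excluded 0, and its 2-fold ratio in early spermatocyte-like cells rests on 3 UMIs in WT and 21 in KO.

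Pooling all germ cells gave other values, and the stages had other shares of the cells. The spermatogonia-like cluster made 3.27% of the WT and 15.2% of the KO cells. In the pool Srm was the only member past 2-fold, at 1.11 (0.87 to 1.36), beside 25.5% of all genes that were higher and 1.99% that were lower by that rule. The pooled ratios were 0.81 for Amd1, 0.60 for Azin1, 0.44 for Oaz1, 0.20 for Oaz2, -0.36 for Odc1, -0.59 for Azin2 and -0.95 for Oaz3, with a median over all genes of 0.33. With equal weight for each germ cell cluster Srm had 0.19 and Oaz1 turned to -0.10, and with TMM factors, which lowered all pooled ratios alike, Srm had 0.77, Oaz2 turned to -0.15 and Oaz3 passed 2-fold at -1.30.

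The other genes of the pathway were taken from a list of 34 that covers the remaining synthesis, catabolism and export, arginine and ornithine supply, the hypusine pathway and the methionine cycle. In late-stage round spermatids 5 of 12 tested passed 2-fold upwards and 1 downwards, beside 9.83% and 2.8% of all genes. In spermatogonia-like cells 1 of 26 was higher, beside 7.77% of all genes. Of the other germ cell clusters, early spermatocyte-like cells had 2 of 11 tested higher, beside 6.81% of all genes. Piwil1 had 1 of 18 higher (5.28%) and Pabpc6 4 of 21 (3.93%). In early-stage round spermatids 2 of 20 were higher (4.35%), in Tssk5 1 of 19 (6.98%) and in Cd46 4 of 19 (10.2%). Prss58, Tnp1 and Car2 had 4 of 13 (9.95%), 3 of 8 (9.07%) and 1 of 6 (13.3%) higher. Lower were 1 gene in Piwil1 (3.66%), 2 in Pabpc6 (3.72%), 1 in early-stage round spermatids (3.78%) and 1 in Cd46 (3.38%). The rest of the others had 0 lower (3.39% to 4.79%). Sms, which turns spermidine into spermine, had 39 UMIs in WT and 207 in KO in the mid-stage Tssk5 cluster, or 3.76 and 23.9 CPM. That is a log2 ratio of 2.67 (2.17 to 3.20), and in the Cd46 cluster it was 1.97 (1.51 to 2.46). Sms also passed 2-fold upwards in early spermatocyte-like, early-stage round spermatid-like and Sertoli-like cells. In late spermatocyte-like cells at most 4 Sms UMIs were counted in either library, and in spermatogonia-like cells the ratio was 0.08 (-0.33 to 0.52). Leydig markers made 29.9 CPM in WT and 249 CPM in KO in the Tssk5 cluster and 80.6 and 178 CPM in the Cd46 cluster. Sertoli markers made 11.2 and 78 CPM in the former and 14.5 and 86 CPM in the latter. Sms itself stood at 2.92 and 4.06 CPM in Leydig-like and 13.4 and 28.5 CPM in Sertoli-like cells. The part of RNA from those cells in the Sms ratios was not tested.

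Satl1, a gene related to the spermidine and spermine acetyltransferases, was higher towards the end of the series, like Oaz3, but was higher in KO in every cluster from the early-stage round spermatids on (0.32 to 1.13). It had 124 CPM in WT and 257 CPM in KO in the Car2 cluster, a ratio of 1.05 (0.90 to 1.21), and 1.13 (0.91 to 1.36) in late-stage round spermatids. Sat1, the acetyltransferase that starts polyamine breakdown, was higher in KO in spermatogonia-like (1.79), Leydig-like (1.63) and Sertoli-like cells (1.74). It also passed 2-fold upwards in the Pabpc6, early-stage round spermatid-like and Cd46 clusters. The summed late spermatocyte-like, mid-stage round spermatid-like and sperm-like classes passed it too. In Leydig-like cells the Sat1 ratio rested on 82 UMIs in WT and 2567 in KO, or 79.8 and 248 CPM. In spermatogonia-like cells Leydig markers made 54.1 CPM in WT and 229 CPM in KO, and macrophage markers 28.6 and 85.6 CPM. Sertoli markers made 136 and 283 CPM there. In the Pabpc6 cluster macrophage markers made 16.1 and 86.6 CPM and Leydig markers 20.3 and 124 CPM. The part of RNA from those cells in the Sat1 ratios was not tested. Dohh, which completes hypusine on the translation factor eIF5A, was lower in the Cd46 cluster, at -1.32 (-2.0 to -0.68). Eif5a itself, the most counted gene of its group, stayed between -0.10 and 0.29 in 10 germ cell clusters and was 0.82 (0.66 to 0.98) in the Car2 cluster. Of the other leading genes, Slc3a2, a subunit of amino acid transporters, had 0.15 (0.04 to 0.26) in Leydig-like cells. Ass1, an enzyme of arginine synthesis, had -0.75 (-0.84 to -0.67) there and passed 2-fold upwards in the Pabpc6 cluster. Mat2a, which makes S-adenosylmethionine, had 0.41 (0.23 to 0.59) in the Piwil1 cluster. Slc3a2 and Mat2a both passed 2-fold upwards in the late-stage round spermatid-like, Prss58 and Sertoli-like clusters, and Mat2a also in the Tnp1 cluster. Atp13a3 and Mtap passed it in the late-stage, Prss58 and Tnp1 clusters, and Mtap also in the Cd46 and Sertoli-like clusters. In Sertoli-like cells 15 of 27 tested genes of the list were higher and 2 lower, beside 39.9% and 14.9% of all genes. Leydig-like cells had 2 of 29 higher and 0 lower, beside 8.3% and 12.9% of all genes. Macrophage-like cells had 1 of 9 higher and 0 lower, beside 16.6% and 8.91%. In pooled germ cells 18 of 31 were higher and 0 lower, beside 25.5% and 1.99% of all genes, where the shares of the stages differed as above.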

How the data were processed

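For each library the authors deposited a table of raw UMI counts per gene and barcode. Per the study's methods and the submitters' processing notes, barcodes and UMIs were read from read 1, and read 2 was trimmed with fastp, aligned with STAR 2.5.3a and counted with featureCounts 1.6.2. GRCh38 is named as the genome, yet the tables carry mouse symbols. Genes listed in only 1 table got 0 in the other. Members and lists were chosen with earlier results of these data known.

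Cells with over 500 genes were kept (all were) and clustered in R 4.3.3 with Seurat 5.3.0, after the study's settings: 2000 variable features, anchors with 20 dimensions, 30 components and resolution 0.3. Members and pathway genes were barred from the variable features. A cluster was named for the marker list with the highest mean log2 fold, with at least 3 markers detected (10% of cells, 2-fold). The 2 sperm lists were scored as 1 class, a choice made after the clusters were seen. Doublets (243 WT and 348 KO cells by Scrublet in scanpy 1.11.5) were kept.

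Counts were summed per library and cluster in Python 3.11.15. Intervals are exact, at 95%. Where a library had no UMI of a gene, 3 counts stood in as the upper limit, and no ratio was given where both sums were at or under 3. Shares of cells were also given after thinning to 5000 UMIs, which left out 241 KO cells. Named genes were the members, Alkbh5, markers, the 3 genes most like each member, look-alike rows, pathway genes past 2-fold with at least 100 UMIs and the most counted gene of each pathway group. Positions came from GENCODE vM21 by symbol. The scripts were tested on simulated data. Alternatives were edgeR 4.0.16 TMM factors, totals without mitochondrial and ribosomal protein genes, thinned cells, 1000 genes per cell, doublets left out, other clusterings, a fold of 1.5, other UMI minimums and equal weight per cluster.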

Additional observations from a re-analysis of the deposited data

How the results depend on the processing

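Over 10 cell classes, 6 pairs of member and class were 2-fold higher and 7 lower in KO. In these classes 4.35% to 39.9% of all genes tested were higher and 2.61% to 14.9% lower. The highest shares were in Sertoli-like cells, which gave 3 of the 6 and 2 of the 7. Shares of all genes per class were not worked out for the other settings. The 6 became 4 and the 7 became 6 with TMM factors. The 6 became 3 in thinned cells and 3 with at least 100 UMIs, and the 7 became 12 at a fold of 1.5. In pooled germ cells 5819 genes were higher and 453 lower. Lower genes numbered 1202 with TMM factors and 1447 at a fold of 1.5. With no UMI minimum 8815 were higher and 1046 lower, with at least 100 UMIs 3570 and 237, and with equal weight per cluster 2347 and 799. Oaz3 and Odc1 were lower in all 7 germ cell classes under each recomputation of the ratios. Amd1 was lower in 1 class, and in 0 with TMM factors, with polyamine genes among the variable features, at resolution 0.8 and without integration. Of 710 recomputed ratios of single members, 673 kept their direction and 644 stayed within the counting interval, and no ratio past 2-fold with at least 20 UMIs changed sign. Azin2 in early spermatocyte-like cells, at 1.26 on 9 UMIs, turned to -0.15 at resolution 0.8. The Srm ratio in pooled germ cells was 0.77 with TMM factors. The Oaz3 ratio in late spermatocyte-like cells, -1.30, was -0.95 without integration. The Azin2 ratio of mid-stage round spermatid-like cells, -0.30, was 0.08 in thinned cells. The cause was not tested. Few UMIs limit Srm throughout and Amd1 and Azin1 in sperm-like cells. No paired analysis was possible because each genotype has 1 library.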
